A study of Mus musculus with 24 samples.

Results

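H19, Sgce and Casd1 are transcripts of 2 imprinted regions of the mouse genome, and their probes were followed through a comparison of drug-treated with untreated cultured embryos. All probes whose annotation gave exactly 1 gene symbol, and that symbol was H19, Sgce or Casd1, were taken, which were 11 of 15360 probes: 8 for H19, 2 for Sgce and 1 for Casd1. They stand for 3 of the 6970 genes that had a probe with 1 symbol. The H19 probes lay on both array designs, 1 in the first value table and 7 in the second, and all Sgce and Casd1 probes lay in the second. These genes were chosen by their treatment effects: 1 probe of each stood among those closest to the test's threshold in the second table, so the values there are a description and carry no test. Ordered by p among named probes of both tables with 1 sign in all 3 slide pairs, Sgce probe 376 was number 1 and Casd1 probe 188 number 4 on the negative side, and H19 probe 6330 was number 8 on the positive side. The first-table H19 probe, 6241, stood at number 14 in the same order and did not lead to the choice, although its value was known.

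Imprinted genes are read mainly from the copy inherited from 1 parent, because DNA methylation laid down in the germ line marks only 1 of the parental copies. H19 is a long noncoding RNA read from the maternal copy and abundant in mesoderm and endoderm of the mouse embryo. It shares a methylated control region with Igf2, a growth factor gene read from the paternal copy. Sgce, which encodes the membrane protein epsilon-sarcoglycan, and Peg10, a gene derived from a retrotransposon and needed for the mouse placenta, are both read from the paternal copy and lie side by side. Casd1 encodes an enzyme that adds acetyl groups to sialic acids and lies on the other side of Sgce. The arrays measure the RNA of both parental copies together.

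The treated embryos were kept at 37 °C with 40 µM 4-hydroperoxycyclophosphamide (4CP, a form of the anticancer drug cyclophosphamide that needs no activation by the liver) for 1 h, and the control embryos were kept at the same temperature without the drug. Both RNAs were hybridised together on 24 arrays with 2 channels, 12 for each of 2 tables of 7680 probes. Each table held 3 slide pairs, numbered 1 to 3 in the titles, with both RNAs exchanged between the channels of the pair's second slide, and each slide had 2 array records. The sources used here give neither strain, stage, dyes nor number of embryos pooled. They do not say whether a pair number stands for a separate culture, so the spread between pairs may be technical. In whole embryos, a change in the number of cells of a kind and a change in RNA per cell cannot be told apart. The values are ratios and hold no expression levels, so the labelled tissue could not be checked against marker levels.

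The deposited values read as log ratios of the 2 channels, with neither the log base nor the numerator channel stated. A difference of 0.1 is 1.07-fold in base 2 and 1.11-fold in base e. Each array was set to a median of 0, the 2 records of a slide were averaged, and the treatment effect of a pair was the slide with treated RNA in channel 1 minus its swapped partner, divided by 2. Because the numerator is unknown, a positive effect can stand for higher or for lower RNA in treated embryos, and no direction is claimed. Signs can still be compared between probes. Should the authors have turned the sign of the swapped slides themselves, the effect would instead be the sum of both slides divided by 2, which is called here the value without the turn. Over all probes, swapped slides of a pair correlated with r from 0.70 to 0.959 across probes. With the turn, 0 of 7680 probes passed an adjusted p of 0.05 in either table (limma, Benjamini-Hochberg), also with slides in place of pairs as the unit, and 180 and 401 had an unadjusted p under 0.05 in the first and the second table.

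H19 was positive on all 8 of its probes in mean effect, and on 6 of them in every slide pair. Among all probes, 46.2% of the first table and 48.4% of the second had a positive mean, and 11.4% and 9.84% were positive in every pair. H19 was singled out on the second-table slides, where its 7 probes read the same RNA, so nothing is read from these counts. Its first-table probe gave nearly the same effect in each pair. That probe lies on other slides than those that singled the gene out, but the titles number the pairs alike on both designs, so the same RNAs may have been hybridised on both and the probe is not taken as separate support. On the second array design, the 7 probes had mean effects between 0.0262 and 0.129. No H19 probe passed the test.

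H19 RNA also contains the hairpin of the microRNA gene Mir675. The mature sequences are shown because they are the part of the H19 transcript with a known product, which the arrays did not measure. Both lie inside H19 on the minus strand in RefSeq on GRCm38.p6, at chr7:142577112-142577133 for the 5p arm and chr7:142577078-142577099 for the 3p arm, with the seed (bases 2 to 8) in capitals.
mmu-miR-675-5p: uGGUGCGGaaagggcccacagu
mmu-miR-675-3p: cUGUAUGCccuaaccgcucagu

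The first-table H19 probe (6241) had treatment effects of 0.155, 0.152 and 0.177 in pairs 1, 2 and 3. All 3 values were positive and differed by less than the effect itself, with a mean of 0.161 ± 0.0134 (SD, n = 3). This mean was higher than 98.9% of all first-table probes. By record, the effect was 0.218, 0.128 and 0.174 from the first records of pairs 1, 2 and 3, and 0.0921, 0.177 and 0.180 from the second. All 6 values were therefore positive, and the records of pair 1 were the farthest apart. With values as deposited, without centring, the mean effect was only 0.0377, against 0.161 with centring. With centring the median effect of all first-table probes was -0.00465, against -0.128 as deposited, so the effect stands relative to the median probe. The probe did not pass the test over the whole table, with an adjusted p = 0.997 (limma, effect 0.161, positive in 3 of 3 pairs), where 0% of probes passed. A positive effect in all 3 pairs was found for 11.4% of first-table probes.

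The separate slides show what this effect rests on. In pair 1, the slide with treated RNA in channel 1 had a log ratio of -0.162 relative to its array medians, and its swapped partner had -0.472. In pair 2 they had 0.166 and -0.139, and in pair 3 -1.15 and -1.50. In each pair the slide with treated RNA in channel 1 was thus the higher, while both slides of pair 3 lay far below those of the other pairs. Without the turn, probe 6241 had -0.317, 0.0135 and -1.32 in pairs 1, 2 and 3, with a mean of -0.542 ± 0.696 (SD, n = 3).

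**Figure D1:**
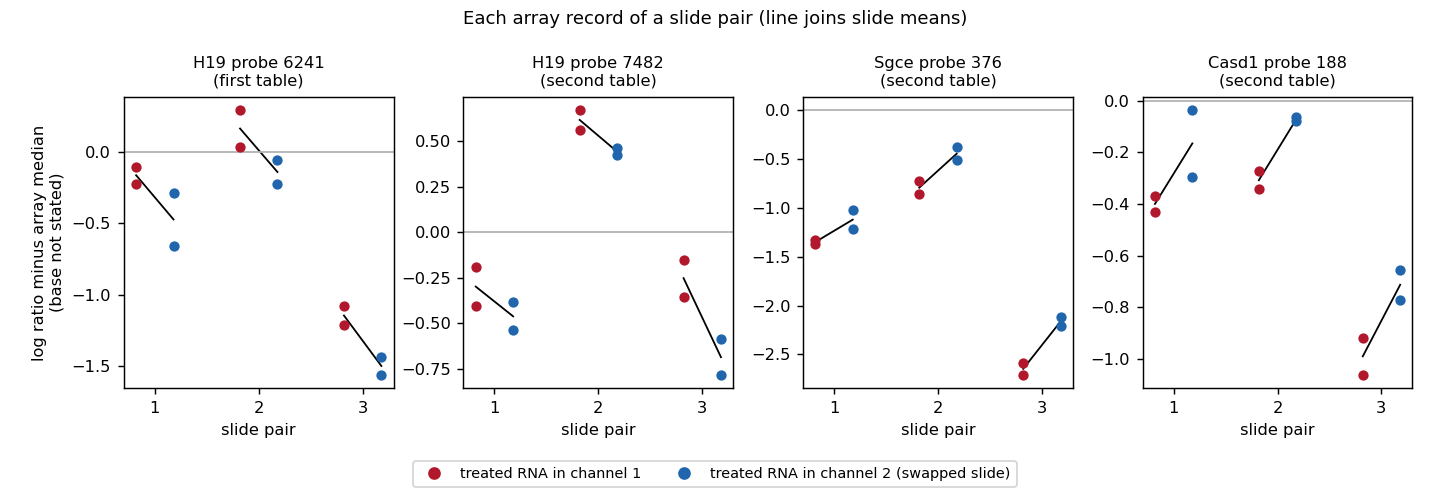
Log ratio relative to the array median (y axis, base not stated) of the leading probe of each gene and table in each array record, by slide pair (x axis). Red points are records with treated RNA in channel 1, blue points those of the swapped slide, and a line joins the slide means. The red slide mean lies above the blue one in every pair for both H19 probes (6241 and 7482). It lies below the blue one for Sgce probe 376 and Casd1 probe 188. In pair 1 of probe 7482 the single records overlap, with a red record at -0.408 below a blue one at -0.386.

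In the second table the 7 H19 probes read 1 gene on the same slides, so they are not replicates of the condition. Their effects ran from -0.0225 to 0.0862 with a median of 0.031 in pair 1, from 0.00825 to 0.0931 with a median of 0.0576 in pair 2, and from 0.082 to 0.239 with a median of 0.151 in pair 3. Every one of the 7 had its highest effect in pair 3, and 19 of the 21 values were positive. Of the 7 probes, 5 were positive in all 3 pairs, where 9.84% of all second-table probes were. The median over the 7 probes was 0.0646, against 0.105 without pair 1 and 0.0313 without pair 3. As the gene was singled out on these slides, nothing is read from these counts or from that difference. The spread of effects over all second-table probes was also widest in pair 3, with SDs of 0.058, 0.0789 and 0.0866 in pairs 1, 2 and 3.

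The probes differed in size. Probe 7482 had 0.0818, 0.087 and 0.217 in pairs 1, 2 and 3, with a mean of 0.129 ± 0.0767 (SD, n = 3), and probe 6330 had 0.0862, 0.0931 and 0.204, with a mean of 0.128 ± 0.0664. These 2 probes differed by at most 0.0505 in any of the 12 arrays. Probe 3661 had a mean of 0.117 ± 0.109, and probes 427, 5547 and 749 had 0.0646 ± 0.0836, 0.0578 ± 0.0513 and 0.0552 ± 0.0604. Probe 5657 was the lowest, at 0.0262 ± 0.0526, and with probe 427 it was 1 of the 2 that were negative in pair 1. Neighbouring means in this order differed by less than their SDs over pairs. With values as deposited, without centring, the median over the 7 probes was 0.0118. Probe 5657 turned to -0.0266, so its positive sign holds only relative to the centre of each array. Probes 749, 5547 and 427 stayed positive, but only at 0.00235, 0.00493 and 0.0118.

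Without the turn, all 8 H19 probes had negative means, as did 47.8% of all first-table and 56.4% of all second-table probes, and 2 of 8 were negative in all 3 pairs. A negative value in all 3 pairs was found for 18.1% of first-table probes and 17.9% of second-table probes. No member passed an adjusted p of 0.05 without the turn (limma), where 2.85% of first-table probes and 0% of second-table probes did, and 1420 and 1254 had an unadjusted p under 0.05. The 7 second-table probes had medians of -0.507, 0.31 and -1.10 in pairs 1, 2 and 3, and their means ran from -0.921 to -0.0953. Here the probes fell apart: 6330 and 7482, the highest with the turn, were nearest to 0, while 427 and 5657 had -0.898 and -0.921.

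**Figure D2:**
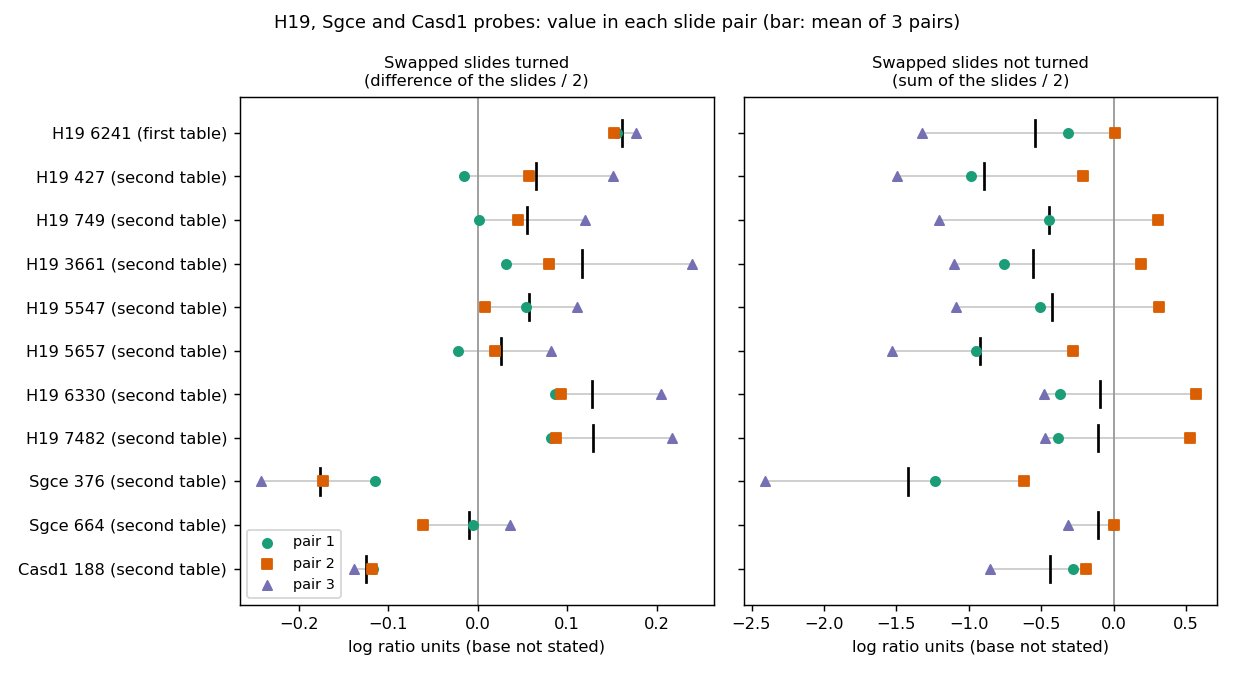
Value of each of the 11 probes (rows) in slide pairs 1, 2 and 3 (points), with the mean as a black bar, in log ratio units of unstated base. On the left swapped slides are turned: H19 means lie between 0.0262 and 0.161, Sgce probe 376 at -0.177 and Casd1 at -0.125. On the right they are not turned, the axis is wider, and all 11 means are negative.

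Sgce had 2 probes, and they did not tell the same story. Probe 376 had effects of -0.114, -0.174 and -0.242 in pairs 1, 2 and 3, with a mean of -0.177 ± 0.0638 (SD, n = 3), and 0.182% of second-table probes had a lower mean. All 6 values by record were negative, from -0.250 to -0.0592. Probe 664 had -0.00556, -0.0609 and 0.0357, with a mean of -0.0102 ± 0.0485, so its pairs lay on both sides of 0. The files do not say which part of the Sgce transcript each probe matches.

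Probe 376 also had low ratios in every slide pair. Its log ratio relative to the array median was -1.35 on the slide of pair 1 with treated RNA in channel 1 and -1.12 on the swapped slide, -0.795 and -0.448 in pair 2, and -2.65 and -2.16 in pair 3. Without the turn its mean was -1.42 ± 0.906 (SD, n = 3), lower than all but 0.495% of probes. Pair 3 had the lowest value without the turn and the most negative effect, while pair 1 had a lower value without the turn than pair 2 (-1.24 and -0.621) and a less negative effect. With the trend of the effect on the sum of the slides removed, an alternative chosen after seeing the data, the effect of probe 376 was -0.130. With quantile normalization it was -0.103, smaller by over 1.5 times. Probe 664 had log ratios near 0 in pairs 1 and 2, with values without the turn of -0.00514, 0.00158 and -0.316 in pairs 1, 2 and 3. The part of the low ratios of probe 376 in its effect was not tested.

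Casd1, next to Sgce on chromosome 6, was negative on its single probe by nearly the same amount in each pair. Probe 188 had effects of -0.117, -0.118 and -0.139 in pairs 1, 2 and 3, with a mean of -0.125 ± 0.0121 (SD, n = 3), and 0.873% of second-table probes had a lower mean. A negative effect in all 3 pairs was found for 14.7% of second-table probes, and since both Sgce probe 376 and Casd1 were singled out for this, nothing is read from it. The 2 records of a slide gave different sizes: -0.198, -0.139 and -0.204 in pairs 1, 2 and 3 from the first records, and -0.0366, -0.0969 and -0.0733 from the second. The first records gave the more negative value in each pair, so the small SD between pairs hides a larger difference between records. The mean was -0.180 from first records alone and -0.0689 from second records alone. Without the turn Casd1 had -0.283, -0.190 and -0.852, with a mean of -0.442 ± 0.358 (SD, n = 3).

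Of the 3 genes, Casd1 was matched in the RefSeq promoter table. The window at its annotated start, from 250 bases before to 50 after it, is shown with its CpG sites (the bases CG) in capitals. Imprinting marks sit on such sites, but whether this window carries one was not examined. It lies at chr6:4600661-4600960 on the plus strand in GRCm38.p6. It holds 23 CG, and 21.5% of the 32851 promoter windows in the table hold at least as many, with a median of 7 per window. A second Casd1 window in the table, at a start inside the gene, holds 5 CG, and 62.0% of windows hold at least as many. The count is a property of the letters and says nothing of methylation, which was not measured.
Casd1 promoter: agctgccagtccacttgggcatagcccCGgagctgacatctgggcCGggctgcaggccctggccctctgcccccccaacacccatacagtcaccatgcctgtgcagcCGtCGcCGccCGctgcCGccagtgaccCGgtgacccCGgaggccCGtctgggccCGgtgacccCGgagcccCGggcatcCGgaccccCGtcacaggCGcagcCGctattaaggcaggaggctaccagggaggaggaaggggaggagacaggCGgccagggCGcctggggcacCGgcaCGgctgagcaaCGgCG

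**Figure D3:**
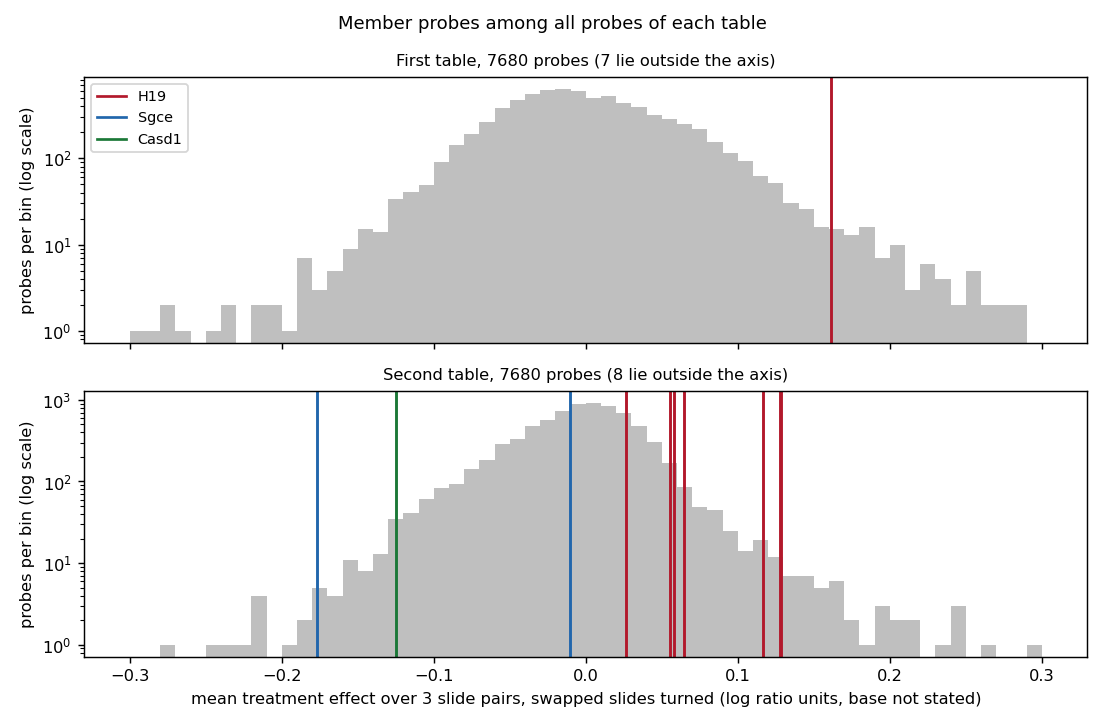
Number of probes (y axis, log scale) by mean treatment effect over 3 slide pairs with swapped slides turned (x axis, log ratio units of unstated base), for the first table (top) and the second (bottom). Coloured lines mark the H19, Sgce and Casd1 probes. The H19 probe at 0.161 lies in the right tail of the first table, and Sgce at -0.177 and Casd1 at -0.125 lie in the left tail of the second, with the second Sgce probe at -0.0102 in the middle.

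Across the 12 centred arrays of the second table, Casd1 probe 188 and Sgce probe 376 correlated with r = 0.948, and Sgce probe 376 and probe 664 with r = 0.697. Above 0.95, 345 of 4934 other probes with 1 symbol correlated with Sgce probe 376, but only 19 of 4934 with Casd1 probe 188. H19 probes 749 and 5657, whose effects have the opposite sign, correlated with Sgce probe 376 with r = 0.923 and 0.912. The H19 probes correlated with each other with r from 0.872 to 0.998. These 12 arrays are 2 records of each of 6 slides, and they share pairs and channel orientation, so the correlations are a description. The probes most like Sgce probe 376 over these 12 arrays were those of Lancl2 (r = 0.998), Pum2 (0.997), Cyrib (0.996), Igfbp5 (0.996) and Apbb2 (0.995). Those most like Casd1 were Ttc28 (r = 0.968), Baz1a, Gorasp2 and Tent2 (0.967 to 0.968) and again Pum2 (0.966). First-table H19 was most like Cnn1 (r = 0.991), Eif4h (0.990), Mpzl1 (0.987), Aurkb (0.986) and Ftl1 (0.986). In the second table, H19 probes 6330 and 7482 were most like each other (r = 0.998), and Myl6 came next for both (0.990 and 0.986). Atf4 was the nearest for H19 probes 427 (0.996) and 749 (0.996).

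The other measured genes of the Peg10 region had mean effects from -0.0482 to 0.0276, a range that also holds Sgce probe 664. Peg10, which adjoins Sgce, had 2 probes in the first table, at -0.0156 ± 0.0160 and -0.0482 ± 0.0225 (SD, n = 3), and both were negative in all 3 pairs, where 11.2% of first-table probes were. Probe 2082 had -0.0435, -0.0726 and -0.0284 in pairs 1, 2 and 3, and probe 1714 had -0.0142, -0.0322 and -0.000315. On the far side of Casd1, Col1a2, a collagen chain, had 0.0208 ± 0.0740 and 0.0270 ± 0.0537, and Bet1, a vesicle transport protein, had -0.0255 ± 0.0377. Ppp1r9a, a neural protein phosphatase regulator, had -0.00217 ± 0.0415 and Pon3, a paraoxonase, had 0.0276 ± 0.0510. Slc25a13, a mitochondrial carrier, had -0.00970 ± 0.0519. Of the 17 genes listed for this region, 6 besides Sgce and Casd1 were measured, and none of their 8 probes passed the test. Their medians were -0.0156 over 3 probes in the first table and 0.0208 over 5 in the second, against -0.00465 and -0.00148 over all probes.

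Igf2, the partner of H19, had 1 probe in each table. The first had effects of 0.0286, -0.0201 and 0.277 in pairs 1, 2 and 3, with a mean of 0.0952 ± 0.159 (SD, n = 3), so it rested on pair 3. The second had 0.00946, -0.0484 and 0.0457, with a mean of 0.00226 ± 0.0474. Neither passed (adjusted p = 0.997 and 0.999, limma, positive in 2 of 3 pairs each). Igf2 had its highest effect in pair 3 in both tables, but so had both Col1a2 probes of the Peg10 region. The share of all probes with this order was not counted, so nothing is read from it. Cdkn1c, a growth inhibitor read from the maternal copy, had 0.0195 ± 0.0861.

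Of the H19 and Kcnq1 domain apart from H19, 10 genes were measured by 10 probes in the first table and 8 genes by 10 probes in the second. Of these probes, 7 of 10 and 8 of 10 had positive means, and the medians were 0.0315 and 0.00946, where 46.2% and 48.4% of all probes had a positive mean. Ctsd, a lysosomal protease, was positive in all 3 first-table pairs at 0.0967 ± 0.0471 (SD, n = 3), while its 3 second-table probes had 0.00995 to 0.0499 and were of mixed sign. Th, the first enzyme of catecholamine synthesis, had 0.0773 ± 0.0110 and was also positive in all 3 pairs. On the negative side in all 3 pairs were Kcnq1ot1, a noncoding RNA that silences genes of this domain, at -0.0776 ± 0.0728, and Tssc4 at -0.0262 ± 0.0156. No probe of the domain passed.

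**Figure D4:**
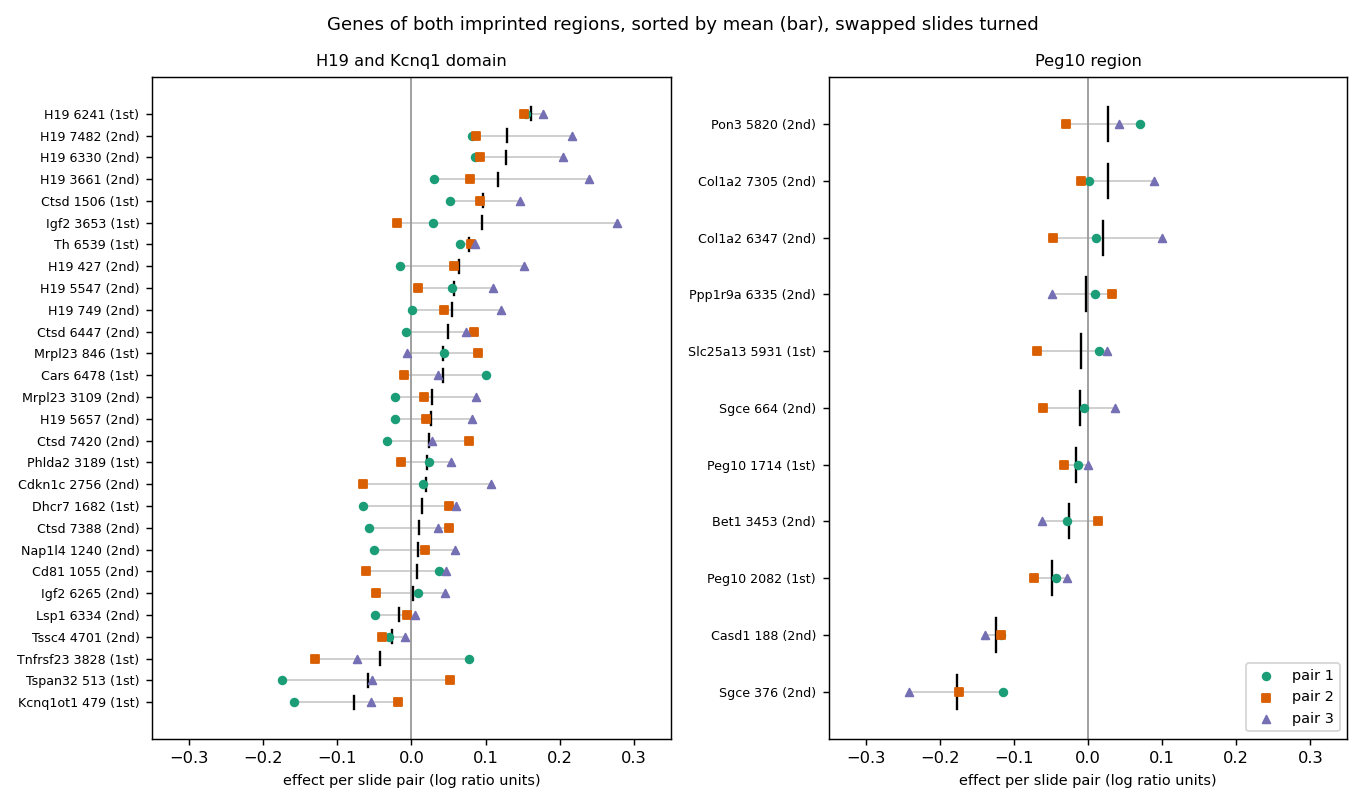
Treatment effect in each slide pair (points) and the mean (black bar), in log ratio units with swapped slides turned, for every measured probe of the H19 and Kcnq1 domain (left) and the Peg10 region (right), sorted by mean; 1st and 2nd name the table. The 3 highest H19 probes of the second table and the first-table H19 probe head the left panel, and Sgce probe 376 and Casd1 stand at the foot of the right panel, below both Peg10 probes.

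Imprinted genes of other regions were mostly positive in the first table and mostly negative in the second. In the first table all 7 probes of 6 such genes had positive means, from 0.00966 to 0.0484, and none had 1 sign in all 3 pairs. In the second table, 16 such genes had 19 probes, of which 5 had positive means, and the values ran from -0.0894 to 0.0264 around a median of -0.0176. Over all probes, 46.2% of the first table and 48.4% of the second had a positive mean. Positive first-table means were not particular to imprinted genes. General reference genes had 15 positive means over 19 first-table probes, with a median of 0.0316, and none had 1 sign in all 3 pairs. These probes stand for only 5 genes, many of them for Actb or Ppia on the same slides, so they are not separate. Actb probes had means of both signs, from -0.0513 to 0.0563, and Hprt had -0.0187. Among the imprinted genes, the lowest second-table value was that of 1 of 2 probes of Airn, a noncoding RNA of the Igf2r region, with a mixed sign over pairs. A negative effect in all 3 pairs was found for 4 of the 19 second-table imprinted probes, where 14.7% of second-table probes had one. Mest, a paternally read gene of mesoderm, was among them at -0.0728 ± 0.0215 (SD, n = 3), as were 1 of 2 probes of Peg3 (-0.0590 ± 0.0448), 1 of 2 probes of Dcn (-0.0582 ± 0.0434) and H13 (-0.0495 ± 0.0371). The other Peg3 probe had -0.000993 ± 0.0471. Igf2r, the maternally read receptor that clears Igf2, had 0.0160 ± 0.0957. None of these probes passed the test.

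Marker lists of tissues that an embryo preparation could hold were described in the same way. For visceral endoderm of the yolk sac, the median effect was -0.0265 over 7 first-table probes, of which 1 was positive, and 0.0167 over 3 second-table probes, of which 2 were. Trophoblast and decidua markers had 0.0771 over 10 first-table probes, with 8 positive, and -0.0472 over 3 second-table probes, with 1 positive. The second-table probes were of other genes except Krt18, which was the positive one at 0.0286. The rest were of Dcn, also counted among the imprinted genes, at -0.0582 and -0.0472. The 4 first-table probes positive in all 3 pairs were all of the keratins Krt8 and Krt18. Tfap2c was negative in all 3 pairs (-0.0884), and the remaining first-table probes of this list were of mixed sign. Primitive erythroid markers had -0.0482 over 8 second-table probes, with 2 positive. These probes stand for only 4 genes, with several of Hbb-y, and both positive ones were of Hbb-b1. Hba-x (-0.0877) and Alas2 (-0.0537) were negative in all 3 pairs, where 14.7% of second-table probes were. Among all probes 46.2% of the first table and 48.4% of the second had a positive mean, and 11.4% of the first were positive in all 3 pairs. Heart and somite markers had no probe with 1 symbol. The part of cell composition in the H19, Sgce and Casd1 values was not tested.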

How the data were processed

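The authors deposited 2 tables of 7680 probes and 12 arrays each. The deposited values carry no stated unit and are named a score here. They read as log ratios: first-table values span -2.60 to 7.71, with array medians of -0.305 to 1.12, and second-table values span -4.33 to 5.96, with array medians of 0.272 to 2.10. The sources used here do not give background correction, normalization or log base, so depth and signal over background are unknown, and the number of arrays limits the precision. No value was missing, and every array column was matched to a sample. Probes were named through the platform annotation, with 4749 and 4935 probes of 1 symbol, of which 4712 and 4884 were found by gene identifier in the RefSeq table. Effects per slide pair were tested against 0 with limma 3.58.1 (lmFit, eBayes, Benjamini-Hochberg over the table) in R 4.3.3. The procedure was tested on simulated data, with simulated effects larger than that of any H19, Sgce or Casd1 probe. That trial therefore does not cover effects of the size described here. Each array was first centred on its median. Slides of a pair share their number in the titles, and the pair was the unit. Named genes are the members, all genes of the 3 imprinted lists with 1 sign in all 3 pairs, Igf2, Peg10, Cdkn1c, Igf2r, Mest and Peg3, and the 5 probes most like each member by Pearson's r; Gnas, Dlk1 and Snrpn were named in the rule and had no probe with 1 symbol. The members and lists were chosen with earlier results of these data known. Remaining neighbours are named to account for the Peg10 region, and Krt8, Krt18, Tfap2c and Dcn to account for the trophoblast and decidua counts. Actb, Ppia and Hprt are named for the reference gene counts, and Hbb-y, Hbb-b1, Hba-x and Alas2 for the primitive erythroid counts.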

Additional observations from a re-analysis of the deposited data

Results flagged for a closer look

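Of 22 sets of 6 arrays (11 probes, 2 channel orientations), 1 held an array far from the others by Dixon's gap test, where chance gives about 1 in 20: Sgce probe 664 had -0.458 in the second record of pair 3 with treated RNA in channel 1. The 2 records of a slide are not independent, so the test is approximate here.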

How the results depend on the processing

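Several signs depended on how the 2 channel orientations were combined. Without the turn, H19 probe 6241 had -0.542 and the median of the second-table H19 probes was -0.446, with probes 749, 3661, 5547, 6330 and 7482 at -0.446, -0.556, -0.428, -0.0953 and -0.107; Sgce probes 376 and 664 had -1.42 and -0.106, Casd1 had -0.442, and 219 first-table probes passed. From slides with treated RNA in channel 1 alone, the values were -0.380 for H19 probe 6241, -0.391 for the H19 median, -0.391, -0.439 and -0.370 for probes 749, 3661 and 5547, -0.833 and -0.895 for probes 427 and 5657, 0.0326 and 0.0213 for probes 6330 and 7482, -1.60 and -0.117 for Sgce probes 376 and 664 and -0.566 for Casd1, with 174 first-table probes past the threshold. From the swapped slides alone, with the sign turned, they were 0.703, 0.502, 1.24, 0.0962 and 0.317 for H19 probe 6241, the H19 median, Sgce 376, Sgce 664 and Casd1, with 668 first-table probes past it. There H19 probe 6241 had an adjusted p of 0.0401 (limma), and over all its alternatives the adjusted p ran from 0.0401 to 1.00.

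With the turn kept, values as deposited gave 33 and 1 probes past the threshold in the first and the second table, -0.0631 for Sgce probe 664 and -0.177 for Casd1. Quantile normalization gave -0.103 for Sgce probe 376 and -0.138 for Casd1. Casd1 had -0.180 from first and -0.0689 from second records. Leaving out each pair gave 24 to 30 probes past the threshold in the first table and 0 to 58 in the second (58 without pair 2), 0.154 to 0.166 for H19 probe 6241, 0.0313 to 0.105 for the H19 median, -0.208 to -0.144 for Sgce probe 376 and -0.128 to -0.118 for Casd1. The cause of these differences was not tested. Slides of a pair share a number, and without the replicate block H19 probe 6241 kept 0.161 with an adjusted p of 1.00 (limma). Removing the trend on the sum of the slides, or centring runs of 240 probe numbers, both chosen after seeing the data, kept the sign of every H19, Sgce and Casd1 value. They gave 0.148 and 0.147 for H19 probe 6241, a shift slightly above its SD between pairs (0.0134), and moved no other of these values by more than its SD.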
